A study of Mus musculus with 6 samples.

Results

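The genes described here encode the nuclear-encoded subunits of the 5 complexes of oxidative phosphorylation, with some of the factors that assemble them. They were chosen by symbol alone, as protein-coding genes whose symbol starts with Nduf, Uqcr, Atp5, Sdha to Sdhd, or Cox4 to Cox8, with mitochondrially encoded genes and pseudogenes left out. This gave 93 genes of the 21255 in the table. Of these, 80 were subunits, with 36 in complex I, 4 in complex II, 8 in complex III, 16 in complex IV and 16 in complex V. The symbol prefixes also took in 12 assembly factors, named Ndufaf or Sdhaf, and Atp5s, a coupling factor that is not a subunit of the enzyme. Ndufa4 and its paralog Ndufa4l2 were counted with complex IV, where the Ndufa4 protein resides.

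The libraries were made from polyadenylated RNA of mouse small intestinal organoids, crypts grown as 3D cultures. All cultures received 4-hydroxytamoxifen (4-OHT), which activates the CreERT2 recombinase, at 400 nM for 2 days per the labels. In the study's design C/EBPα Flox/Flox mice carried VillinCreERT2 (C/EBPα KO, 3 samples) or lacked it (control, 3 samples, labelled wildtype), and Villin drives the recombinase in epithelium only. By column name, only the control libraries (S1, S2, S3) could be matched to labels. The C/EBPα KO samples are not analysed here. The results therefore describe control organoids, which were exposed to 4-OHT but carried no recombinase, and leave genotypes uncompared. The sources used here do not say whether the 3 control libraries came from separate animals. The sex-linked transcripts given below differ between S1 and the other two, so the libraries did not all come from the same animal. S2 and S3 also differed in Y-linked transcripts, with Eif2s3y at 105 and 11.5 and Ddx3y at 67.3 and 2.30 normalized counts. Whether S2 and S3 came from the same animal, and how much of their spread is technical, cannot be told.

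Oxidative phosphorylation takes place at the inner mitochondrial membrane. Complex I accepts electrons from NADH and complex II from succinate, both pass them to ubiquinone, and complexes III and IV carry them on through cytochrome c to oxygen. The protons pumped on the way drive complex V, the ATP synthase. Complexes I, III, IV and V combine subunits from the nuclear and the mitochondrial genome, whereas complex II is encoded by the nucleus alone. Absorptive enterocytes, the main cell of the small intestinal villus, depend on ATP for nutrient and ion transport.

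The promoters of these genes are known for binding sites of NRF1, a transcription factor that activates many nuclear genes of mitochondrial proteins. Promoter windows from 250 bases before to 50 bases after the annotated start were read from RefSeq (GRCm38.p6), which gave 71 windows for 66 of the 80 subunits. The NRF1 motif, made of GCGC, any base (N) and TGCGC and searched on both strands, was found in 18 of these 71 windows (25.4%) and in 6.38% of the 21263 windows of all protein-coding genes. The following stretches from 4 members show it, with the motif in capitals, and were picked from the matches after these had been seen.

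Sdha, chr13:74350304-74350363, minus strand: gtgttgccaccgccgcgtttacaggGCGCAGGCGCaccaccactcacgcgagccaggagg

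Sdhd, chr9:50603894-50603953, minus strand: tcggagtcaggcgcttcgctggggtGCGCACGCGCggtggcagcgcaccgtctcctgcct

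Cox6a1, chr5:115349086-115349145, minus strand: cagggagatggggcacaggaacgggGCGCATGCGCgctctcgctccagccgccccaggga

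Ndufb4, chr16:37654525-37654584, minus strand: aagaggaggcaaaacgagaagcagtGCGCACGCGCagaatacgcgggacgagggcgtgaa

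Each stretch lies upstream of the annotated RefSeq start and is written 5′ to 3′ in the direction of transcription. The motif begins 98 bases before the start in Sdha, 79 in Sdhd, 162 in Cox6a1 and 191 in Ndufb4. The GABP motif ACCGGAAG was found in 8.45% of subunit windows and 3.01% of all windows. The YY1 motif AAGATGGCG was found in 9.86% of subunit windows and 1.83% of all windows. The palindromic C/EBP motif TTGCGCAA was found in 0 of 71 subunit windows and in 0.221% of all windows. These matches describe letters in a fixed window and show no binding.

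Levels are given in normalized counts as deposited. For comparisons between genes they were divided by the length in kilobases (kb) of 1 main transcript per gene, since a longer transcript yields more fragments. The depth, recovered from the step between low values, was 36819530 (S1), 32898280 (S2) and 30405545 (S3) reads on genes. The transcripts of the 80 subunits held 1.76 ± 0.03% of all normalized counts (SD, n = 3). Per kb, the median subunit stood at the 96.7th percentile of the 13803 genes that averaged 10 or more normalized counts, and 70 of the 79 subunits above that minimum stood above the 90th percentile. In contrast, the 12 assembly factors had a median percentile of 55.5, and none of the 12 was above the 90th. These ranks depend on the division by length, which raises short transcripts. The median transcript length was 758 bases over subunits and 2684 over all genes tested. Without a length, Ndufb8, the median subunit per kb, stood at the 87.7th percentile. Ndufa1 fell from 91.3 to 56.1, whereas Sdha, with a longer transcript, rose from 97.5 to 98.8.

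**Figure D1:**
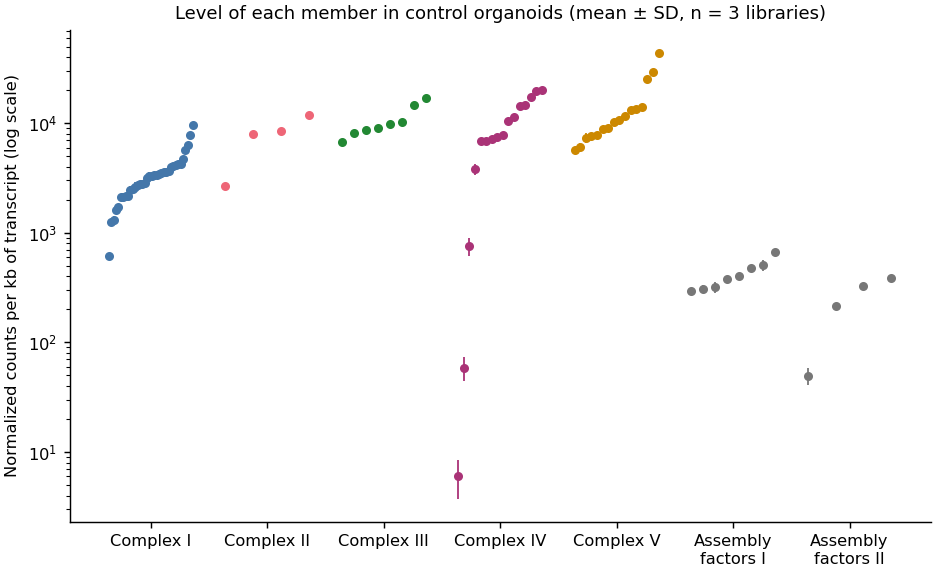
Level of each of 92 members in control organoids, with Atp5s left out, as normalized counts per kb of transcript on a log scale (points, mean; bars, SD over 3 libraries; bars smaller than the point are hidden). Subunits of complexes II, III and V lie at 2691 and above, complex I lies lower as a group with a median of 3296, 4 complex IV genes trail below the rest of that complex, and the assembly factors lie between 49.4 and 667.

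When the complexes were compared per main transcript length, the level per subunit was highest in complex V and lowest in complex I. By the mean over subunits, complex I was lowest on each of the 5 length bases tried. By the same mean, complex V was highest on 4 of them and just below complex II per union of exons (6028 against 6089). The mean over subunits was 13977 normalized counts per kb in complex V, 10542 in complex III, 9303 in complex IV, 7701 in complex II and 3414 in complex I. Medians per main transcript length gave the same order at the ends, with 10448 in complex V and 3296 in complex I. Here complex II (8167) came before complex IV (7595). On the other bases complex I was again lowest by median, but complex V was not always highest. Without a length it came below complex II (6468 against 11775). It came below complex IV per coding length (17385 against 22791) and below complex III per union of exons (3955 against 6404). Summed over subunits, complex V made up 36.6 ± 0.31% of all subunit transcripts per kb, complex IV 24.4 ± 0.30%, complex I 20.1 ± 0.11%, complex III 13.8 ± 0.05% and complex II 5.05 ± 0.10% (SD, n = 3). The shares differed between complexes by far more than between libraries. The order of complexes IV and I depended on the length used. Without a length, complex I held 19.5% and complex IV 15.9%, whereas per coding length complex IV held 29.9% and complex I 18.5%.

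**Figure D2:**
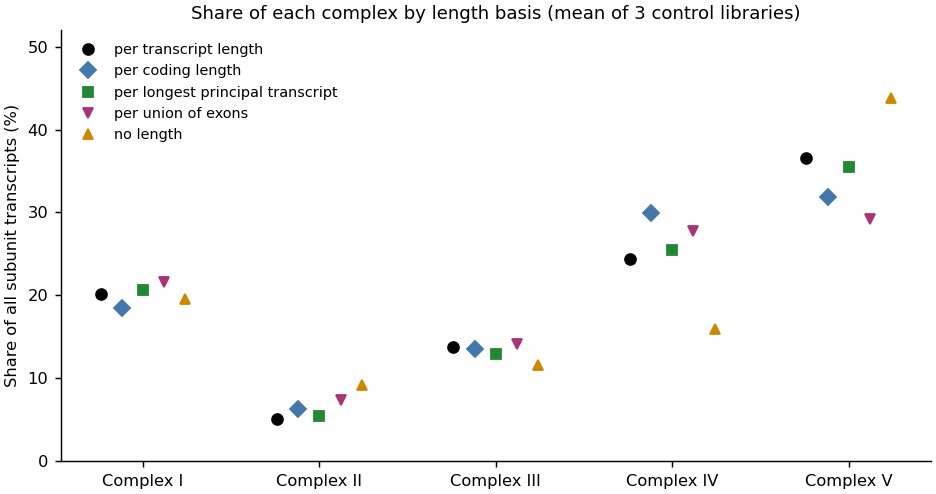
Share of each complex in the summed level of all 80 subunits (percent, mean of 3 control libraries), with the level divided by the length of the main transcript, the coding length, the longest principal transcript, the union of all exons, or not divided. Complex V is highest on each basis, from 29.2% to 43.8%, and complex II lowest, from 5.05% to 9.16%, while complex IV moves between 15.9% and 29.9%.

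Complex I, NADH dehydrogenase, was measured through 36 subunits that spanned 15.6-fold, from 613 to 9573 normalized counts per kb. Its 7 nuclear-encoded core subunits hold the flavin and the iron-sulfur clusters that lead electrons to ubiquinone. Ndufs7, which carries the last cluster of the chain, had 4248 ± 146 normalized counts per kb and Ndufv1, the flavin and NADH-binding subunit, had 4196 ± 126 per kb. These neighbours lay within their spread. Ndufs3 followed at 3514 ± 81.8 per kb. Lower still were Ndufs1 at 2856 ± 97.1 and Ndufv2 at 2792 ± 64.8 per kb, both of which carry iron-sulfur clusters, and these did not differ beyond their spread either. Ndufs8 was the lowest core subunit at 2493 ± 147 per kb. This order holds per main transcript length only, as coding bases were 636 of 983 in Ndufs8 and 2181 of 2590 in Ndufs1.

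The other 29 complex I subunits are supernumerary, meaning that they surround the core and carry no redox centre. Their median was 3263 per kb, against 3514 for the 7 core subunits. Ndufa6, a LYR-motif subunit, was the highest member of the whole complex at 9422, 10218 and 9079.6 per kb. After Ndufa6 came the membrane-arm subunits Ndufb8 at 6391 ± 140.0, Ndufb9 at 5713 ± 357 and Ndufb10 at 4739 ± 252 per kb. Ndufab1, which is also the mitochondrial acyl carrier protein and acts outside the complex too, had 3347 ± 106 per kb, near the median of the group. Ndufs4, a subunit of the electron-input arm whose loss causes mitochondrial disease, had 1209, 1419.7 and 1322 per kb. At the lower end, Ndufc1, a small membrane subunit, had 1258 ± 54.4 per kb. Ndufb4, a membrane-arm subunit, had 588, 659 and 593 per kb, below every other subunit of complex I.

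The low value of Ndufb4 stood beside a copy of the gene. Ndufb4c (ENSMUSG00000083380), left out of the members because GENCODE calls it a processed pseudogene (RefSeq lists it as protein-coding), had 1224, 1365 and 1067 normalized counts. In comparison, Ndufb4 (ENSMUSG00000022820) had 571, 640.0 and 575. The copy was therefore above the gene in each library. The Ndufb4c transcript of 390 bases contains the complete coding sequence of Ndufb4, with 0 differences over 387 bases. The first 120 coding bases are shown because reads from them fit both genes equally.

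Ndufb4, coding bases 1 to 120: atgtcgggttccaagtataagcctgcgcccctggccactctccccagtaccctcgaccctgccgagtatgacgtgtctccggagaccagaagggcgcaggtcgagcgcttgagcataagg

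Ndufb4c, the same bases: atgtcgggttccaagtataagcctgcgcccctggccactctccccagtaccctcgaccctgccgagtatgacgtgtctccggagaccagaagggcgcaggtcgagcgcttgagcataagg

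No base is in capitals because none differs. Only the untranslated ends of Ndufb4 separate the pair, so the division of counts between them is uncertain, as is the low rank of Ndufb4. With the counts of Ndufb4c added to Ndufb4, the share of complex I became 20.3%. Over all members, 29 of 93 shared at least 1 window of 75 bases with another annotated gene, and 11 shared over 10% of their windows with a gene that has a row in the table.

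Complex II, succinate dehydrogenase, was measured through its 4 subunits. Sdha, the flavoprotein that oxidises succinate, had 8241, 8605 and 8382 normalized counts per kb. Sdhb, the iron-sulfur subunit, had 7701, 8285 and 7789.6 per kb, so that the Sdha to Sdhb ratio was 1.06 ± 0.02 (SD, n = 3), though 1.46 per union of exons and 2.70 without a length. Of the membrane anchors, Sdhd had 12035, 11634 and 11666 per kb, while Sdhc had 2603, 2807 and 2663. Their ratio was 4.38 ± 0.24 per transcript length, 1.81 per coding length and 1.70 without a length, since the Sdhc transcript is 3171 bases long.

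Complex III, which passes electrons from ubiquinol to cytochrome c, spanned 2.5-fold from the lowest to the highest of its 8 subunits, against 4.38-fold in complex II, but 3.08-fold against 2.84-fold per coding length. Uqcrh, the hinge protein that contacts cytochrome c1, was highest at 17035, 17302 and 16153 per kb, followed by Uqcrq, a small subunit, at 15121, 15255 and 13955. Uqcrc1 and Uqcrc2 are the large core proteins. Uqcrc1 had 10341 ± 69.1 and Uqcrc2 9069 ± 317 per kb, and Uqcrc1 was the higher in each library, whereas their ratio per coding length was 0.939. Uqcrb, which takes part in binding ubiquinone, had 8091 ± 397 per kb. Uqcrfs1, the Rieske iron-sulfur protein, was lowest at 6636, 6787 and 6814.

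Complex IV, cytochrome c oxidase, takes its catalytic subunits from the mitochondrial genome, and its nuclear-encoded subunits surround them. Cox4i1, needed for assembly and for regulation by ATP, was highest at 20910.5, 20572 and 19361 normalized counts per kb. Cox8a, a small membrane subunit, had 20102, 20764 and 18199 per kb, within the spread of Cox4i1. Cox5a had 14688 ± 511 per kb and Cox5b, which binds zinc, had 7777 ± 331 per kb. Cox7b had 6831 ± 538 per kb. The 11 sole or broadly expressed subunits of the complex lay between 6831 and 20281 per kb.

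Several complex IV subunits exist as isoforms with different tissue distribution. Cox6a1, the broadly expressed form, had 10025, 10042 and 9465 normalized counts. Cox6a2, the form of heart and skeletal muscle, had 4.73, 5.34 and 2.30 normalized counts, close to the floor of 3 reads, the most that a count of 0 is compatible with. Cox6b1, again the broad form, had 8988, 9308 and 8432 normalized counts. Cox6b2, known from testis, had 20.8, 34.2 and 26.5. Per kb, the broad form exceeded the restricted form 256 ± 61.8-fold for Cox6b, 349-fold per coding length and 533-fold per union of exons. The muscle and testis forms were thus marginal in all 3 libraries. Cox4i2, Cox7b2, Cox8b and Cox8c were not analysed here.

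For Cox7a the pattern was different. Cox7a1, best known from heart, skeletal muscle and brown fat, had 1437, 1685 and 1354 normalized counts. Cox7a2, the broad form, had 4757, 4728 and 4236. The ratio of Cox7a2 to Cox7a1 was 1.84 ± 0.15 per transcript length and 2.97 per coding length, so the muscle-type isoform was within a few-fold of the broad one. Cox7a2l, which links complexes III and IV in supercomplexes, had 7413 ± 216 per kb within the spread of Cox7a2 (6940.3 ± 444), but their ratio was 1.31 per coding length and 1.75 without a length.

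Markers of striated muscle were set beside this. Of 8 markers, 3 had a row: Des was at 0 in every library, Myh7 had 52.3 ± 4.67 normalized counts, and Acta1 had 306, 428 and 623. The summed level of the list ran from 361 in S1 to 677 in S3, while Cox7a1 was lowest in S3. The part of muscle-type transcripts in the level of Cox7a1 was not tested.

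Ndufa4, the subunit of complex IV once assigned to complex I, had 4338, 4583 and 4095 normalized counts. Ndufa4l2, a paralog known to be induced by hypoxia, had 776, 555 and 798. S2 was the lowest library for Ndufa4l2 and the highest for Ndufa4, and the Ndufa4 to Ndufa4l2 ratio per kb was 8.56 (S1), 12.7 (S2) and 7.86 (S3). The mean ratio was 9.69 per transcript length, 6.72 per coding length and 5.02 per union of exons.

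**Figure D3:**
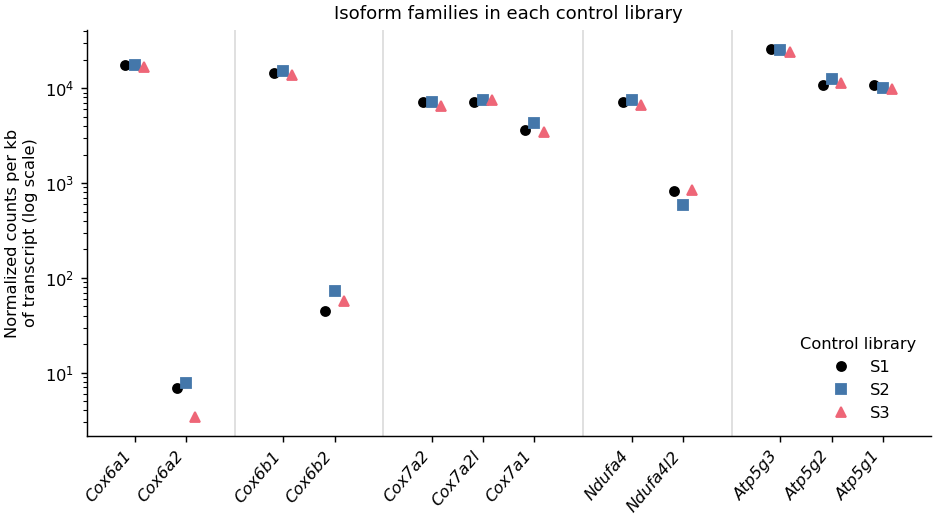
Isoforms of complex IV and complex V subunits in each control library, as normalized counts per kb of transcript on a log scale (black circles, S1; blue squares, S2; red triangles, S3). Cox6a2 and Cox6b2 lie over 2 orders of magnitude below their partners, whereas Cox7a1 lies at 3797 ± 438 against 6940.3 ± 444 for Cox7a2.

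Complex V was led by the subunits of its catalytic head. Atp5b, the catalytic β subunit, was the highest of all members at 84600.1, 83418 and 83574 normalized counts. Atp5a1, the α subunit, followed at 71169.7, 72346 and 71747. The enzyme holds several copies of α and β for a single γ, δ and ε. Per kb, Atp5b exceeded Atp5c1 (γ) 3.28 ± 0.08-fold, Atp5d (δ) 3.11 ± 0.04-fold and Atp5e (ε) 7.34 ± 0.72-fold. These ratios stayed above 2 for each length used. The Atp5b to Atp5e ratio moved most, to 3.28 per coding length, 13.8 per union of exons and 33.4 without a length. In contrast, the Atp5b to Atp5a1 ratio was 1.51 ± 0.02 per transcript length, 1.22 per coding length and 0.865 per union of exons, so its direction depended on the length. Atp5o, the stalk protein OSCP, had 13246 ± 358 per kb. Atp5f1, the b subunit of the peripheral stalk, had 8909 ± 53.8, Atp5h (d) 10713 ± 362 and Atp5j (F6) 7715 ± 345 per kb. The small membrane subunits Atp5l (g) and Atp5k (e), which take part in dimers of the enzyme, had 9079 ± 384 and 7352 ± 704 per kb. The lowest members were Atp5e at 6004 ± 586 and Atp5j2, a small membrane subunit, at 5659.9 ± 271 per kb.

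The proton-carrying c ring of complex V is encoded by 3 genes with the same mature protein. Atp5g3 had 18666, 17929.9 and 17276 normalized counts, Atp5g1 had 6459, 5936 and 5814, and Atp5g2 had 4726, 5515 and 4996. Atp5g3 was the highest in every library. It exceeded Atp5g1 2.47 ± 0.06-fold and Atp5g2 2.19 ± 0.22-fold per kb. Atp5g1 and Atp5g2 did not differ beyond their spread per kb. These ratios depended on the length used. Atp5g3 to Atp5g1 was 6.67 per union of exons and 19.3 per longest principal transcript, and Atp5g3 to Atp5g2 was 3.68 per coding length. The Atp5g1 to Atp5g2 ratio was 0.89 ± 0.11 per transcript length, 1.29 per coding length, 0.41 per union of exons and 0.186 per longest principal transcript, so its direction was not settled. All 367 windows of 75 bases of the Atp5g2 transcript used also occur in the pseudogene Gm10175, which had a mean of 1276 normalized counts. The level of Atp5g2 is therefore uncertain. This transcript has 441 bases, of which 438 are coding, and the longest principal transcript, of 731 bases, was not searched.

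Assembly factors were measured at lower levels than the subunits. The 8 complex I factors lay between 292 per kb (Ndufaf3) and 667 per kb (Ndufaf8), and the 4 complex II factors between 49.4 per kb (Sdhaf3) and 385 per kb (Sdhaf4). Each of the 12 lay below the lowest general subunit of its own complex except Ndufaf8, which was at 667 against 613 for Ndufb4. Ndufaf4 had the most normalized counts of the complex I factors (1307, 1083 and 1083) but a transcript of 3632 bases, which gave 319 ± 35.5 per kb. Sdhaf2, which attaches flavin to Sdha, had 986, 921 and 1001 normalized counts. Atp5s had 239, 291 and 303 normalized counts.

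The 3 control libraries were then compared with each other, to see whether the members varied together. For each gene the recovered reads were tested by chi-square against the division expected from the library factors, with Benjamini-Hochberg adjustment over 13803 genes. This test covers counting error and compares 3 libraries, not conditions. Over all genes tested, 40.9% were called at an adjusted p below 0.05, and among genes with at least 1000 normalized counts 54.5% were called. Of the members, 61 of 92 were called (66.3%), and of the subunits 57 of 79 (72.2%). Without S3, 29 members were called, against 46 without S1 and 43 without S2. The share of all genes called is not given for such pairs, so these counts have no background to be read against. With all 3 libraries, the called subunits were 19 of 36 in complex I, 4 of 4 in complex II and 6 of 8 in complex III. In complex IV they were 14 of 15 and in complex V 14 of 16. Only 3 of the 12 assembly factors were called. Since the power of the test grows with reads, the high share of subunits stands beside their high counts. The differences were small, with a median coefficient of variation of 4.23% over subunits and 6.62% over all genes tested.

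The called subunits had a common direction. Of the 57, 43 were highest in S2, against 29.1% of all genes called, and 41 were lowest in S3, against 28.2%. Regardless of the test, S3 was the lowest library for 52 of 79 subunits, where it was the lowest for 31.1% of all genes tested. S2 was the highest library for 54 of 79 subunits, against 29.9% of all genes tested. The median subunit lay 0.08 below the mean of the other libraries on the log2 scale in S3 (-0.08), 0.06 above it for S2 and 0.01 above it for S1. For all genes tested the medians were within 0.01 of 0 in each library. By complex, the S3 median was -0.08 in complex I, -0.02 in complex II, -0.09 in complex III, -0.11 in complex IV and -0.06 in complex V. The value of complex II turned to 0.02 without S2, so its direction was not settled. That of complex V shrank to -0.04 without S2 and kept its sign.

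The size of this deviation went with transcript length. The 11 subunits with transcripts under 500 bases had a median of -0.16 in S3, and 11 of 11 lay below 0. The 28 with 500 to 750 bases had -0.09, and 28 of 28 lay below 0. The 13 with 750 to 1000 bases had -0.08. Above this length the deviation was small, at -0.02 for the 22 with 1000 to 2000 bases and under 0.01 in size for the 5 longer ones. All genes tested showed an ordered change of the same kind, with -0.14, -0.06, -0.04, -0.02 and 0.02 in the same classes. Thus subunits below 1000 bases had a median of -0.10 in S3, against -0.06 for all 1357 genes of that length, where S3 was the lowest library for 48.3% of genes and for 44 of 52 subunits. Subunits of at least 1000 bases had -0.01, against 0.01. Across 79 subunits Spearman's rho between length and the S3 deviation was 0.61, and between level and the deviation 0.38, which is a description since the points share their libraries. Over 13791 genes the rho for length was 0.17. The part of transcript length in the lower level of S3 was not tested further.

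**Figure D4:**
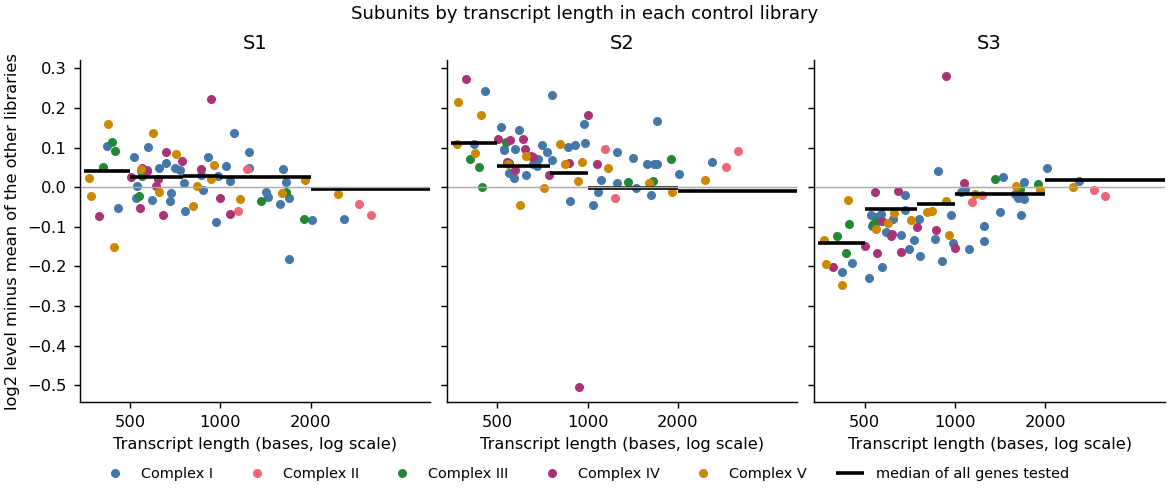
Deviation of each subunit in a control library from the mean of the other 2 libraries (log2 of normalized count plus 1) against transcript length in bases on a log scale, 1 panel per library, coloured by complex; black bars give the median of all genes tested in 5 length classes. In S3 each subunit drawn below 750 bases lies under 0, and the black bars run from -0.14 to 0.02. Cox6b2, at a mean of 27.2 normalized counts, and Cox6a2 are not drawn.

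Single members followed or broke this pattern. Among those called, the largest ranges were in Ndufa4l2, with a log2 range of 0.52 (adjusted p = 7.07e-10, chi-square with Benjamini-Hochberg adjustment), and Sdhaf3, with 0.49 (adjusted p = 0.00997). Ndufa4l2 went against the other subunits, as it was lowest in S2 and highest in S3. Sdhaf3 had 241, 228 and 171 normalized counts and was lowest in S3. Atp5s followed with a range of 0.34 and was highest in S3, Ndufaf2 with 0.33 (366, 369.7 and 295 normalized counts), and Cox7a1 with 0.31 (adjusted p = 1.4e-07). At the other end, Uqcrc1 (17004, 17222 and 17055) and Atp5f1 (14197, 14366 and 14309), a stalk subunit, were not called in spite of their high counts, with log2 ranges of 0.02 each. Atp5b and Atp5a1 were called with ranges of only 0.02.

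The libraries also differed in other respects. The X-inactivation transcript Xist had 18.9, 15423 and 14769 normalized counts (S1, S2, S3), and the Y-linked Eif2s3y had 1999, 105 and 11.5. S1 thus stood apart from the other two in both. The 4 Y-linked genes measured (Kdm5d, Uty, Ddx3y and Eif2s3y) were at 4.62% to 6.08% of their S1 level in S2, where the subunits were highest, and at 0.183% to 1.70% in S3. The part of this in the level of the subunits was not tested. Of the 3 X-linked subunits, Ndufa1 had 1084, 1087 and 936, Ndufb11 had 3340.1, 3387 and 2959, and Cox7b had 6739, 7419.9 and 6356, so that each was lowest in S3 and none set S1 apart. The summed level of 5 Paneth cell markers was 93903, 104691 and 117052 (S1, S2, S3), and that of 4 goblet cell markers 54983, 60240.4 and 66223. Both sums were highest in S3, in which the subunits were lowest. By gene, Defa24 (Paneth) was highest in S2 and Muc2 (goblet) in S1, and the other markers of both lists were highest in S3. Stem cell markers (4 genes) summed to 24160, 21738 and 21816, with a median deviation of 0.10 in S1, -0.01 in S2 and -0.10 in S3. As for most subunits, the S3 deviation was negative for Lgr5 (-0.13), Olfm4 (-0.04), Ascl2 (-0.08) and Smoc2 (-0.16). The sums of 10 enterocyte markers were 769776, 767354 and 743459, but the list had no common direction: 3 of the 10 were lowest in S3 (Fabp1, Fabp2 and Apoa1), Sis, Alpi and Vil1 were highest there, and the median deviation of the list was 0.05 in S3, against 0.02 in the other two. Whether fewer cells of a type or less RNA per cell lies behind such a difference cannot be told apart in bulk libraries, and its part in the level of the subunits was not tested. The mesenchymal genes Col1a1 and Col1a2 and the immune genes Ptprc and Adgre1 were at 3 reads or fewer in each library, while Vim had 153 ± 34.2 normalized counts. Enterocyte, Paneth, stem and goblet markers were detected in each library.

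Genes that act with these complexes were measured from lists. Of all genes tested 40.9% were called between libraries, and 54.5% of those with 1000 or more normalized counts. The first list held 13 genes, made of regulators of mitochondrial genes with Cebpa added, and 10 of the 13 were called, Cebpa among them. Ppargc1a, a coactivator of mitochondrial biogenesis, had 692, 939 and 1021 normalized counts and was highest in S3, in contrast to most subunits. Esrra, a nuclear receptor and partner of Ppargc1a, had 5114, 4562 and 4733. Nrf1, whose motif is shown above, had 1288, 1152 and 1186. Cebpa, the gene targeted in the study, had 6446, 5829 and 6016. It was lowest in S2, where the subunits were highest, but so were Esrra and Nrf1, while Ppargc1a was lowest in S1. The median S2 deviation of the whole list was -0.06, so this was not particular to Cebpa. Of 14 tested carriers and ubiquinone synthesis genes, 7 were called, with Cycs (cytochrome c) at 3392, 3037 and 3095 and its testis form Cyct at 0. Of 27 further assembly genes 9 were called.

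The 13 protein-coding genes of the mitochondrial genome held 2.57 ± 0.03% of all normalized counts. This value depends on nuclear copies of mitochondrial DNA. For the complex IV subunit mt-Co2, with 2133 normalized counts, 99.5% of windows of 75 bases also occur in the pseudogene Gm28661, which had 174925. For mt-Co3, with 3297, the same held for 99.9% of windows and Gm28437, with 140223. For the complex V subunit mt-Atp6, with 5964, it held for 99.5% and Gm10925, with 100214. The levels of these mitochondrial subunits could therefore not be set against their nuclear-encoded partners.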

How the data were processed

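The authors mapped paired-end reads with Bowtie2 2.2.9, quantified them with RSEM 1.2.31 and used DESeq2 1.14.1, with build mm9, per the submitters' processing notes. They deposited 1 table of normalized counts, treated here as a signal per gene and library (21256 rows, 1 repeated identifier left out). Columns were matched to labels by name, which left 3 value columns unused. Division by the smallest step of each library (0.946 for S1, 1.07 for S2, 1.15 for S3) gave whole reads for 100% of values, within 0.01 reads, as for counts scaled by 1 factor per library.

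Symbols, biotypes and lengths came from GENCODE M21 (GRCm38) by Ensembl identifier (21213 matched). The length of a gene was that of its shortest well supported principal transcript. Genes that averaged 10 or more normalized counts were compared on their reads by chi-square (scipy 1.17.1, Benjamini-Hochberg over 13803 genes, threshold 0.05). No count test between genotypes was made, since the 3 unused value columns match no C/EBPα KO label by name. Deviations used log2(normalized count + 1). In simulated reads, 4.85% of unchanged genes passed an unadjusted threshold of 0.05, and 88.5% of 200 doubled genes were called. Python 3.11.15, numpy 2.4.6 and pandas 2.3.3 were used.

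Members and lists were chosen with earlier results of these data known. The genes named in full were the 2 highest and 2 lowest per kb in each complex, isoform families, core subunits and the 5 called members with the largest range between libraries (46 genes in all, of which 1 is not reported here). Other genes were named after their values had been seen. The alternatives tried were other scalings, filters, pseudocounts and lengths, and leaving out each library. Shared windows were matched without mismatch against all GENCODE transcripts on the same strand.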

Additional observations from a re-analysis of the deposited data

Results flagged for a closer look

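Signal was found in 5 pseudogene rows that are not members and exceeded the 3 reads with which a count of 0 is still compatible. Ndufb4c had 1219 ± 149 normalized counts (SD, n = 3 control libraries) and carries the coding sequence of Ndufb4 without a difference. Gm10175 had 1276 normalized counts and contains the transcript of Atp5g2. Gm28661 had 174925, Gm28437 had 140223 and Gm10925 had 100214, each of them a nuclear copy of a mitochondrial gene. Reads of such pairs cannot be assigned by sequence where the copies are identical. With 3 libraries in the group, no library was tested for lying apart from the others.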

How the results depend on the processing

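The number of members called between control libraries was 61, and stayed between 56 and 62 when libraries were scaled to the same total or upper quartile or when the minimum mean was 1 or 50. Leaving out 1 library gave 29 to 46 members, with 29 when S3 was left out. A pair of libraries also has fewer reads, and the share of all genes called is not given for pairs. The share of complex I was 19.5% without a length, 18.5% per coding length, 8.46% from medians over members, 21.6% per union of exons, 20.6% per longest principal transcript and 20.3% with Ndufb4c added to Ndufb4. In the same order without the last, complex II had 9.16%, 6.22%, 21.0%, 7.37% and 5.43%, complex III 11.5%, 13.5%, 24.3%, 14.1% and 13.0%, complex IV 15.9%, 29.9%, 19.5%, 27.7% and 25.5%, and complex V 43.8%, 31.9%, 26.8%, 29.2% and 35.5%. The medians ignore the number of members, which is what moved complexes I and II most. Median deviations kept their sign under other scalings and pseudocounts. Leaving out 1 library turned 5 of them: S1 ranged from -0.0392 to 0.0633 in complex I, -0.0204 to 0.0622 in complex III, -0.0647 to 0.0844 in complex IV and -0.0204 to 0.0389 in complex V, and S3 from -0.0570 to 0.0204 in complex II. The median of subunits of at least 1000 bases in S3 was -0.0378 without S1 and 0.00903 without S2. The cause was not tested. The union, longest-transcript, Ndufb4c and length-class settings were chosen after seeing the data. The planned comparisons with C/EBPα KO (limma, edgeR and DESeq2, pseudocounts, leaving out libraries) were not run. No paired analysis was made because only 1 group had columns matched by name.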
